A study of Sus scrofa with 6 samples.

Results

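The genes described here encode subunits of potassium, sodium and voltage-gated calcium channels, in embryonic stem cell lines of the pig (Sus scrofa). They are the rows of the gene table whose symbol starts with KCN, with SCN and a digit, or with CACNA, CACNB or CACNG, and that held at least 60 read counts summed over the 6 libraries of the study. The table has 31908 genes, 124 of them under these symbols, and 81 reached the minimum. The lines are PA_1 and PA_3, derived from parthenogenetic embryos (eggs activated without sperm), and IVF_1, derived from an embryo fertilised in vitro. The labels give all 3 lines as wild type, grown in the condition named FIW, with 2 libraries of poly(A) RNA per line. PA and IVF are read here in their usual sense for embryo-derived cells, since the labels do not spell them out, and the series concerns serum-free medium and culture without feeder cells. No passage number is stated, and each line is 1 derivation. A difference between lines therefore cannot be told apart from a difference between parthenogenetic and fertilised origin, and p-values measure only the spread between libraries of a line, which may be technical.

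Ion channels are membrane pores that let chosen ions run down their gradients, and a cell's resting and active membrane voltage depends on which of them are open. Voltage-gated channels of all 3 ions carry a large pore-forming subunit with voltage sensors, made as separate subunits in potassium channels and as linked repeats of 1 chain in sodium and calcium channels, and smaller auxiliary subunits alter their gating and their delivery to the surface. These proteins are best known from nerve and muscle, while leak and inward rectifier potassium channels also set the voltage of cells that fire no action potentials.

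Library totals ran from 15248306 to 28575817 counts, and genes of the mitochondrial genome took 7.67% to 12.2% of them, highest in both PA_3 libraries. The members held 14879 to 34532 counts in a library, and each of the 81 had at least 1 count in each library. Of 10 pluripotency markers looked for, 6 were found by symbol and all 6 were tested, with 3 called lower in PA_1 against IVF_1 and 4 lower and 1 higher in PA_3. Over all tested genes, 16.1% were called lower and 15.3% higher in PA_1, and 26.2% and 25.9% in PA_3. Of these 6 markers DNMT3B and LIN28A were the most abundant, at 551 ± 3.17 to 1257 ± 2.31 and 628 ± 8.69 to 1031 ± 35.5 TPM by line (mean ± SD of 2 libraries, as for every such value). NANOG, a core pluripotency factor, was lower in PA_1 and in PA_3 than in IVF_1 (log2 fold changes -1.32 and -2.83), as was DNMT3B (-0.99 and -0.99). LIN28B, a regulator of microRNA processing, was lower in PA_3 (-1.11), and OTX2, a homeobox factor, was higher there (0.58). The part of these differences in the channel results was not tested. The other 4 were not analysed here. Levels of different genes are compared in the authors' TPM (a measure scaled by transcript length and library). Levels of 1 gene in different lines are given as CPM (counts scaled by library size after TMM), because the median log2 TPM ratio of PA_3 to IVF_1 was -0.27 over 14673 genes. The adjusted p is that of Benjamini and Hochberg, from edgeR's quasi-likelihood test over all 15197 genes tested, a gene is called where that value is below 0.05, and all 81 members were tested.

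Averaged over the 6 libraries, 14 members stood at 10 TPM or more and held 61.2% of the members' summed TPM, 37 stood between 1 and 10 TPM, and 30 were below 1 TPM. In PA_1 the leading gene was CACNB3 at 50.1 ± 7.495 TPM, followed by CACNG7 at 39.0 ± 4.49, SCN1A at 34.0 ± 1.65, CACNA1H at 24.9 ± 3.18 and CACNB1 at 20.9 ± 0.424. The libraries of neighbours in this order did not overlap, though CACNB3 and CACNG7, and CACNG7 and SCN1A, came within their spread. In PA_3 CACNG7 led at 48.3 ± 0.70 TPM, and SCN1A at 29.5 ± 2.89, CACNB3 at 29.1 ± 0.509 and CACNA1H at 26.7 ± 0.587 followed. Of these, SCN1A did not differ from CACNB3 or CACNA1H beyond their spread. In IVF_1 CACNB3 at 34.0 ± 1.11 TPM and CACNG7 at 31.8 ± 4.59 overlapped, and KCNJ3, at 28.0 ± 1.39 TPM, overlapped CACNG7. CACNA1H at 18.2 ± 1.26, CACNB1 at 17.7 ± 0.658 and SCN1A at 17.4 ± 1.56 TPM then lay within each other's spread.

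Summed by family, calcium channel beta subunits had 83.8 ± 8.84 TPM in PA_1, 51.2 ± 1.21 in PA_3 and 61.9 ± 0.255 in IVF_1, the highest sum of any family in PA_1 and IVF_1. In PA_3 the gamma subunits had the highest sum, 68.5 ± 1.94 TPM. The sum of the 10 inward rectifier (Kir) genes differed most between lines in relative terms. It was 17.4 ± 0.255 TPM in PA_1, 10.4 ± 0.0495 in PA_3 and 32.4 ± 1.51 in IVF_1. KCNJ3 was its largest part in each line and had the same order, with 5.2 ± 0.141 TPM in PA_3 and 28.0 ± 1.39 in IVF_1. The median log2 fold change of the Kir genes against IVF_1 was 0.32 in PA_1 and 0.13 in PA_3. KCNJ3 was the only Kir gene called lower against IVF_1, while 1 of the 10 was called higher in PA_1 and 4 in PA_3. Of those 4, KCNJ6 reached the minimum through PA_3. The call in PA_1, KCNJ5, was lost in 7 of 13 alternative analyses. Over all tested genes, 15.3% and 16.1% were called higher and lower in PA_1, and 25.9% and 26.2% in PA_3. The 21 pore-forming voltage-gated potassium (Kv) genes summed to 52.7 ± 8.29 TPM in PA_1, 52.3 ± 1.06 in PA_3 and 51.7 ± 2.35 in IVF_1. In TPM these sums were closer together than the libraries of PA_1 were to each other. On the tested counts the median log2 fold change of the Kv genes against IVF_1 was 0.12 in PA_1 and 0.36 in PA_3. These sums are levels and were not tested. TPM ran low in PA_3, with a median log2 ratio to IVF_1 of -0.27, so a gap of that size lies within the scaling. On the tested counts the beta subunits had a median log2 fold change of -0.03 in PA_3 against IVF_1.

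**Figure D1:**
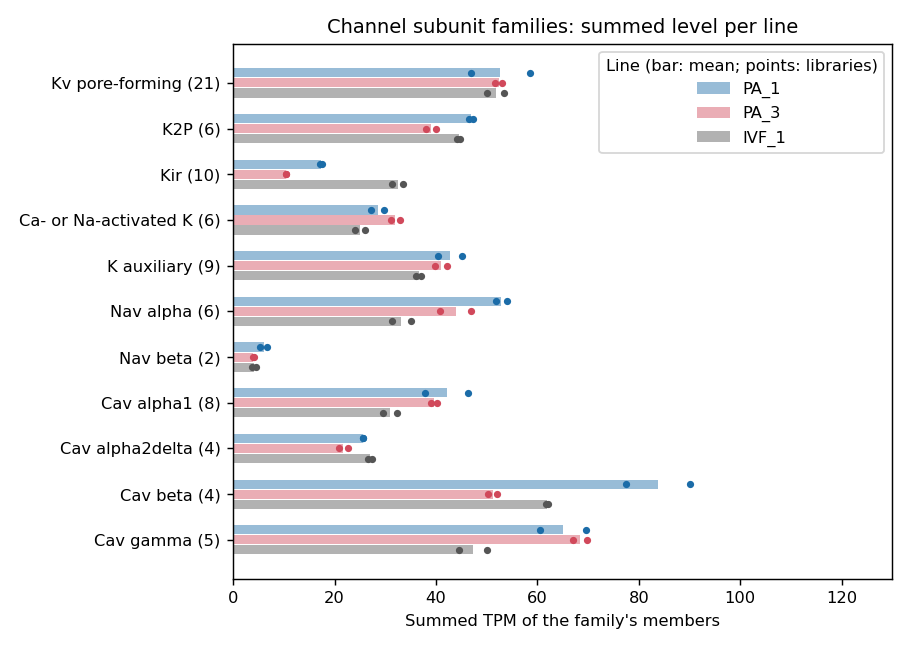
Summed TPM of the members of each family (number of members in brackets) in PA_1, PA_3 and IVF_1, with bars for the line means and points for the 2 libraries. The Kir sum is lowest in PA_3 at 10.4 TPM and highest in IVF_1 at 32.4 TPM, the order of KCNJ3, its largest part. KCNJ3 was the only Kir gene called lower against IVF_1, while 1 of the 10 was called higher in PA_1 and 4 in PA_3. Over all tested genes, 15.3% and 16.1% were called higher and lower in PA_1, and 25.9% and 26.2% in PA_3. The sum of calcium channel beta subunits is highest in PA_1 at 83.8 TPM. TPM ran low in PA_3 beside IVF_1 (median log2 ratio -0.27).

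Against IVF_1, channel genes were called higher more often than lower in both parthenogenetic lines. In PA_1 22 of 81 members were called higher and 7 lower, that is 27.2% and 8.64%, where 15.3% and 16.1% of all tested genes were called higher and lower (31.4% in all). The members' median log2 fold change was 0.23, beside 0.00 over all tested genes. In PA_3 33 members were called higher and 5 lower, that is 40.7% and 6.17%, beside 25.9% and 26.2% of all tested genes (52.1% in all), and the median was 0.24 beside 0.00. Both comparisons use the same IVF_1 libraries. With PA_1 set against PA_3, 13 members were called higher and 21 lower, beside 17.8% and 19.0% of all tested genes (36.8% in all), with a median of -0.17. Over the whole table the last comparison called 2712 genes higher and 2883 lower, and 3477 and 2373 with library totals in place of TMM, whereas the members then gave 14 and 20.

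Single libraries moved these counts, those of the whole table as well as those of the members. Without replicate 1 of IVF_1, 12 members were called higher and 3 lower in PA_1 against IVF_1. Without replicate 2 of PA_3, 6 were higher and 14 lower in PA_1 against PA_3, and without replicate 1 of PA_3 8 were higher. The 5 lower calls of PA_3 against IVF_1 came to 3 when replicate 1 of PA_3, or replicate 2 of IVF_1, was omitted.

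Changes of at least 2-fold were fewer. Such calls numbered 7 higher and 2 lower in PA_1 against IVF_1 (3.63% and 2.99% of all tested genes, 6.62% together), 13 higher and 1 lower in PA_3 against IVF_1 (7.71% and 5.4%, 13.1% together), and 0 higher and 6 lower in PA_1 against PA_3 (3.9% and 4.42%, 8.32% together). Of the members, 7 had under 60 counts outside PA_3 and so reached the minimum through that line, which bears on counts of members high there. Among the other 74, the 2-fold counts were 7 and 1, 9 and 1, and 0 and 2 in the same order, and all calls were 22 higher and 6 lower, 29 and 5, and 13 and 17. Over those 3 comparisons, the map of members by library shows the PA_3 libraries as high for KCNC2 and CACNA1I, and the IVF_1 libraries as low for KCNK10.

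**Figure D2:**
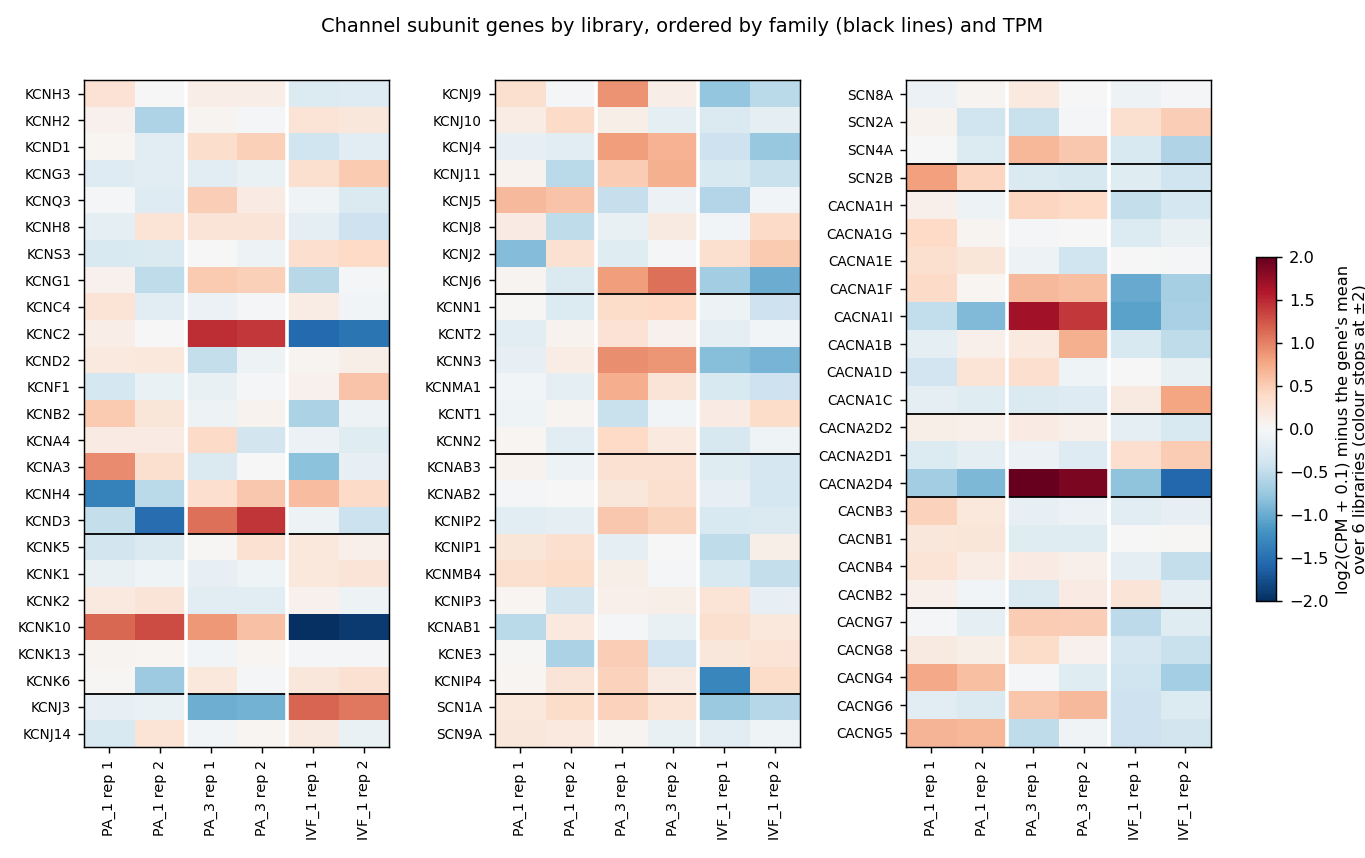
Heat map of 74 of the 81 members, those named in the text (rows, ordered by family and TPM) in the 6 libraries (columns), coloured by log2(CPM + 0.1) minus the gene's mean over the libraries. KCNK10 is low in both IVF_1 libraries, KCNJ3 is high there, and KCNC2 and CACNA1I are high in both PA_3 libraries. CACNA2D4, also high in PA_3, reached the count minimum through that line.

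Among pore-forming calcium channel subunits (alpha1), CACNA1H and CACNA1G of the T type, which opens at voltages close to rest, were the most abundant. CACNA1H (ENSSSCG00000034266, chromosome 3, 40637436 to 40694818, minus strand on Sscrofa11.1, as for all positions) had 118 and 102 CPM (PA_1), 147 and 144 (PA_3), and 78.6 and 85.7 (IVF_1). Its libraries did not overlap between any of the lines, with PA_3 highest and IVF_1 lowest. It was higher in PA_1 than in IVF_1 (log2 fold change 0.42, SE 0.080, adjusted p = 0.00074), higher in PA_3 than in IVF_1 at 0.82 (SE 0.080, adjusted p = 3e-07), and lower in PA_1 than in PA_3 at -0.40 (SE 0.077, adjusted p = 0.00067).

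CACNA1G, another T-type gene, had 61.3 and 48.2 CPM (PA_1), 45.4 and 46.3 (PA_3), and 38.4 and 41.8 (IVF_1). The PA_1 libraries were the highest, and replicate 2 of PA_1 stood close to both PA_3 libraries. CACNA1G rose in PA_1 against IVF_1 at 0.46 (SE 0.10, adjusted p = 0.0029), a call lost without replicate 1 of IVF_1 (adjusted p = 0.068). Its difference between PA_1 and PA_3 was small, 0.26 (SE 0.0996, adjusted p = 0.047). That call was lost in 7 of 13 alternative analyses, among them DESeq2 and the omission of each library of PA_3, of IVF_1 and of replicate 1 of PA_1, and the last gave 0.07 (adjusted p = 0.56). PA_3 against IVF_1 was not called (0.20, adjusted p = 0.13), though it was called without either PA_1 library (adjusted p = 0.021 and 0.0226) and in a fit of these lines alone (adjusted p = 0.0217).

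CACNA1I, also T-type, showed the largest difference among alpha1 genes. Its levels were 1.32 and 0.982 CPM (PA_1), 6.25 and 5.22 (PA_3), and 0.846 and 1.18 (IVF_1), so that PA_3 stood apart. The gene was 5.66-fold higher in PA_3 than in IVF_1 (log2 fold change 2.50, SE 0.27, adjusted p = 9.3e-07), and PA_1 was lower than PA_3 by the same test (log2 fold change -2.27, adjusted p = 1.3e-06). In TPM it remained a minor T-type gene in PA_3, at 0.925 ± 0.120 against 26.7 ± 0.587 for CACNA1H.

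Among the other alpha1 genes, CACNA1F on the X chromosome, an L-type subunit known from the retina, rose in PA_1 at 1.12 (SE 0.25, adjusted p = 0.003) and in PA_3 at 1.51 (SE 0.24, adjusted p = 7.5e-05). The call in PA_1 was lost with IVF_1 replicate 1 left out (0.063). It stayed at or below 0.605 ± 0.0212 TPM in each line. The N-type subunit CACNA1B rose in PA_3 against IVF_1 (log2 fold change 0.92, adjusted p = 0.011), while its difference between PA_1 and PA_3 was not called (adjusted p = 0.086). The CACNA1B call was lost with DESeq2 (0.061), IVF_1 replicate 2 left out (0.083) and PA_3 replicate 2 left out (0.16). CACNA1E, the R-type subunit, had 10.8 and 10.3 CPM (PA_1), 8.06 and 6.55 (PA_3), and 8.58 and 8.38 (IVF_1), with a call between PA_1 and PA_3 (log2 fold change 0.53, SE 0.14, adjusted p = 0.0059). That call was lost without replicate 2 of PA_3 (adjusted p = 0.128). The L-type subunits of heart, nerve and gland, CACNA1C and CACNA1D, had means of 0.193 and 0.33 TPM over the libraries, and no comparison called either.

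Auxiliary alpha2delta subunits, which sit outside the membrane and raise the number of channels at the surface, split by gene. CACNA2D1 (ENSSSCG00000015402, chromosome 9, 97780742 to 98266573, plus strand) had 38.5 and 40.7 CPM (PA_1), 43.0 and 39.0 (PA_3), and 58.9 and 66.0 (IVF_1), and IVF_1 lay above both other lines. It was lower in PA_1 at -0.66 (SE 0.089, adjusted p = 3.1e-05) and in PA_3 at -0.61 (SE 0.088, adjusted p = 2.7e-05). CACNA2D2 ran the other way, with 44.0 and 43.3 CPM (PA_1), 45.2 and 43.6 (PA_3), and 35.2 and 32.9 (IVF_1). Its rises against IVF_1 were 0.36 (SE 0.086, adjusted p = 0.0044) in PA_1 and 0.38 (SE 0.086, adjusted p = 0.0013) in PA_3, and omitting replicate 2 of IVF_1 ended the first call (adjusted p = 0.086).

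CACNA2D4, a subunit known from photoreceptors, was near the detection limit outside PA_3. Of its 106 counts PA_1 held 9, PA_3 93 and IVF_1 4, so it passed the minimum through PA_3. Per library these were 0.203 and 0.164 CPM (PA_1), 2.01 and 1.71 (PA_3), and 0.181 and 0.0654 (IVF_1). Since the choice of this member rests on PA_3, its difference is given as counts, with no test. The gene lies across from LRTM2 on the opposite strand over 13796 bases, and the counts of LRTM2 were 66 and 46 (PA_1), 92 and 77 (PA_3), and 54 and 55 (IVF_1). Whether reads were assigned by strand is not given, so the share of LRTM2 reads in these counts was not tested.

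Beta subunits are cytoplasmic proteins that bind alpha1 subunits and carry them to the membrane. CACNB3 (ENSSSCG00000032967, chromosome 5, 14874238 to 14888224, plus strand) had 77.5 and 65.1 CPM (PA_1), 50.2 and 51.8 (PA_3), and 48.3 and 50.2 (IVF_1), PA_1 being highest with its libraries the furthest apart. It rose in PA_1 against IVF_1 at 0.54 (SE 0.089, adjusted p = 0.00023) and against PA_3 at 0.49 (SE 0.086, adjusted p = 0.00032), while PA_3 against IVF_1 gave 0.05 (adjusted p = 0.66). CACNB1, the beta subunit of skeletal muscle channels, had 36.0 and 36.3 CPM (PA_1), 25.8 and 25.9 (PA_3), and 30.4 and 31.0 (IVF_1) and an order from PA_1 through IVF_1 to PA_3 without overlap. PA_1 exceeded PA_3 at 0.48 (SE 0.088, adjusted p = 0.0004). The call in PA_3 against IVF_1 was marginal at -0.25 (SE 0.091, adjusted p = 0.031) and was lost in 7 of the 13 alternative analyses, among them the omission of any library of PA_3 or IVF_1, with adjusted p up to 0.16. CACNB4, a beta subunit of the brain, rose in both lines against IVF_1 (0.55 in PA_1, adjusted p = 0.0013, and 0.46 in PA_3, adjusted p = 0.0024). Both were lost with IVF_1 replicate 2 left out (0.054 and 0.079). CACNB2, the main beta subunit of heart muscle, was not called in any comparison.

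The gamma subunit genes include those for regulators of AMPA-type glutamate receptors, CACNG4, CACNG5, CACNG7 and CACNG8, beside CACNG6, a relative of the muscle calcium channel subunit. CACNG7, the member with the highest mean TPM, had 62.1 and 55.1 CPM (PA_1), 89.5 and 88.7 (PA_3), and 44.1 and 53.4 (IVF_1). PA_3 lay above the other lines, and the libraries of IVF_1 differed from each other by more than PA_1 replicate 2 did from the nearer of them. It rose in PA_3 against IVF_1 at 0.87 (SE 0.092, adjusted p = 8.1e-07) and stood lower in PA_1 than in PA_3 at -0.60 (SE 0.089, adjusted p = 5.6e-05). The smaller difference of PA_1 from IVF_1, 0.27 (SE 0.094, adjusted p = 0.035), was lost with DESeq2 and without replicate 1 of PA_1, replicate 1 of PA_3 or replicate 1 of IVF_1, the last giving 0.14 (adjusted p = 0.47).

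CACNG4 had 5.49 and 4.96 CPM (PA_1), 3.15 and 2.704 (PA_3), and 2.42 and 1.96 (IVF_1), with PA_1 above both other lines. It was 2.39-fold higher in PA_1 than in IVF_1 (log2 fold change 1.26, SE 0.21, adjusted p = 0.00031) and also higher than in PA_3 at 0.85 (SE 0.19, adjusted p = 0.0022). CACNG5 gave 3.09 and 3.05 CPM (PA_1), 1.30 and 1.79 (PA_3), and 1.39 and 1.44 (IVF_1) and again PA_1 stood alone. Its differences were 1.12 (SE 0.27, adjusted p = 0.0049) from IVF_1 and 0.98 (SE 0.25, adjusted p = 0.0049) from PA_3. Omitting replicate 1 of IVF_1 ended the former call (adjusted p = 0.056), as omitting replicate 1 of PA_3 ended the latter (adjusted p = 0.074), which DESeq2 did not make either (adjusted p = 0.055).

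CACNG6 had 3.43 and 3.27 CPM (PA_1), 6.003 and 6.36 (PA_3), and 3.02 and 3.34 (IVF_1), highest in PA_3. The test gave 0.96 (SE 0.18, adjusted p = 0.00037) for PA_3 against IVF_1 and -0.88 (SE 0.17, adjusted p = 0.0007) for PA_1 against PA_3. CACNG8 rose in both parthenogenetic lines, at 0.54 (SE 0.13, adjusted p = 0.0036) in PA_1 and 0.62 (SE 0.12, adjusted p = 0.00057) in PA_3, the first lost with IVF_1 replicate 2 left out (0.059).

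Gamma subunit genes that lie next to each other in the genome could be set side by side. CACNG5 (chromosome 12, 13288544 to 13328017) and CACNG4 (chromosome 12, 13391078 to 13452174) are on the plus strand and both were highest in PA_1. CACNG6 (chromosome 6, 56129832 to 56151133), CACNG8 (56154750 to 56175002) and CACNG7 (56188168 to 56212505) follow each other on the minus strand and differed in pattern. CACNG6 and CACNG7 were lower in PA_1 than in PA_3, while CACNG8 was not called in that comparison (log2 fold change -0.08).

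Sodium channel alpha subunits form the pore behind the fast upstroke of action potentials. SCN1A (ENSSSCG00000024204, chromosome 15, 72529875 to 72678067, minus strand), a subunit best known from inhibitory neurons, took more counts than any other member, 17987 over the 6 libraries. It had 146 and 163 CPM (PA_1), 174 and 153 (PA_3), and 75.4 and 85.0 (IVF_1). All 4 PA libraries lay above both IVF_1 libraries, and the PA lines overlapped each other. SCN1A was 1.92-fold higher in PA_1 (log2 fold change 0.94, SE 0.086, adjusted p = 4.2e-07) and 2.04-fold higher in PA_3 (log2 fold change 1.03, SE 0.085, adjusted p = 5.1e-08). PA_1 against PA_3 gave -0.09 (adjusted p = 0.44).

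The other alpha subunits were less abundant. SCN9A, known from pain-sensing neurons, lies beside SCN1A on the same strand (chromosome 15, 72748692 to 72912407) and had 33.3 and 32.7 CPM (PA_1), 29.5 and 25.8 (PA_3), and 24.5 and 26.8 (IVF_1). It rose in PA_1 against IVF_1 at 0.37 (SE 0.10, adjusted p = 0.011), PA_1 was also above PA_3 (0.26, adjusted p = 0.048), and PA_3 against IVF_1 was not called (0.11, adjusted p = 0.38). The first call was lost with IVF_1 replicate 1 left out (0.16). The second was lost with DESeq2 (0.12), no filter on low counts (0.057), a fit of these lines alone (0.077), a replicate block (0.06), IVF_1 replicate 1 left out (0.082), IVF_1 replicate 2 left out (0.083), PA_1 replicate 1 left out (0.056) and PA_3 replicate 2 left out (0.4). SCN2A, close to both (71864739 to 71999212, plus strand), held 117 counts in all and was not called. SCN8A, which serves repeated firing, had 25.7 and 29.02 CPM (PA_1), 31.9 and 27.9 (PA_3), and 26.2 and 27.4 (IVF_1) and was not called in any comparison. SCN4A of skeletal muscle held 24 counts in PA_1, 44 in PA_3 and 12 in IVF_1, reached the minimum through PA_3 and is given with no test. These alpha subunits are close in sequence, and how reads matching more than 1 of them were counted is not stated.

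Of the beta subunits, which are small membrane proteins that alter gating and adhesion, SCN2B differed by line. It had 11.97 and 9.05 CPM (PA_1), 5.46 and 5.33 (PA_3), and 5.68 and 5.04 (IVF_1), so that PA_1 was high, with its libraries spread, and the other lines overlapped. PA_1 was 1.98-fold above IVF_1 (log2 fold change 0.99, SE 0.17, adjusted p = 0.00028) and above PA_3 at 0.98 (SE 0.16, adjusted p = 0.00011).

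Leak potassium channels with a pair of pore domains per subunit (K2P) hold the resting voltage. KCNK10 (ENSSSCG00000002423, chromosome 7, 110118067 to 110271481, minus strand), of the group gated by stretch, fatty acids and temperature, had 26.6 and 29.5 CPM (PA_1), 21.9 and 18.0 (PA_3), and 2.90 and 3.08 (IVF_1). Both parthenogenetic lines lay far above IVF_1, PA_1 above PA_3, with no overlap. The gene was 9.34-fold higher in PA_1 (log2 fold change 3.22, SE 0.16, adjusted p = 1.6e-10) and 6.67-fold higher in PA_3 (log2 fold change 2.74, SE 0.16, adjusted p = 6.7e-10). PA_1 exceeded PA_3 at 0.49 (SE 0.11, adjusted p = 0.003), a call lost without replicate 2 of PA_3 (0.35, adjusted p = 0.089). In length-scaled units it was the lowest of the 6 K2P members in IVF_1, at 1.08 ± 0.226 TPM, and in PA_1, at 9.71 ± 0.177, it followed KCNK1 and KCNK5.

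The remaining K2P genes moved less or the other way. KCNK2, the closest relative of KCNK10 in this set, had 14.2 and 14.8 CPM (PA_1), 10.7 and 10.8 (PA_3), and 13.3 and 11.6 (IVF_1). It was called between PA_1 and PA_3 (0.44, adjusted p = 0.0082) and against IVF_1 in neither, and that call was lost without either PA_3 library (0.06). KCNK1, a weakly rectifying leak subunit, had 26.0 and 27 CPM (PA_1), 25.7 and 27.1 (PA_3), and 33.2 and 34.4 (IVF_1) and was highest in IVF_1, with calls at -0.35 (SE 0.094, adjusted p = 0.0087) in PA_1 and -0.36 (SE 0.093, adjusted p = 0.0043) in PA_3. Each of these was lost without replicate 2 of IVF_1, with adjusted p = 0.092 and 0.055. The first was also lost without replicate 1 of IVF_1 (0.062) and the second without replicate 1 of PA_3 (0.053). KCNK5, a leak channel opened by alkaline pH, had 20.2 and 21.3 CPM (PA_1), 26.5 and 32.1 (PA_3), and 29.98 and 28.0 (IVF_1). PA_1 was lower than IVF_1 at -0.48 (SE 0.11, adjusted p = 0.0031) and lower than PA_3 at -0.50 (SE 0.11, adjusted p = 0.0015), calls lost without replicate 1 of IVF_1 (adjusted p = 0.062) and without replicate 2 of PA_3 (adjusted p = 0.057). KCNK6 and KCNK13 were not called in any comparison.

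**Figure D3:**
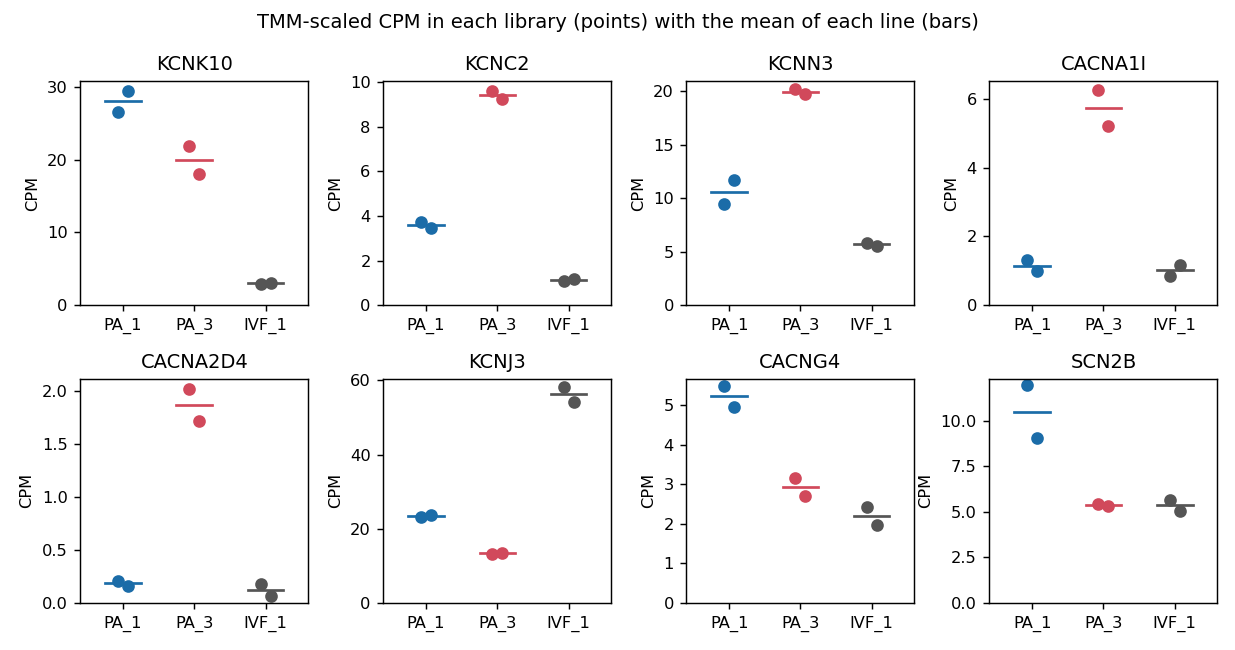
TMM-scaled CPM of 8 members in each library (points) with the mean of each line (bars), each panel on its own axis from 0. KCNK10 is at 2.90 and 3.08 CPM in IVF_1 and at 18.0 or more in the other libraries, KCNJ3 is highest in IVF_1, and CACNA1I is highest in both PA_3 libraries. CACNA2D4, also highest in PA_3, reached the count minimum through that line.

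Inward rectifier channels pass potassium into the cell more easily than out of it. KCNJ3 (ENSSSCG00000036078, chromosome 15, 62264004 to 62416294, plus strand), a subunit of the channels opened by G proteins, was highest where KCNK10 was lowest, with 23.2 and 23.8 CPM (PA_1), 13.1 and 13.5 (PA_3), and 58.2 and 54.3 (IVF_1). IVF_1 was highest, PA_1 intermediate and PA_3 lowest, with no overlap. It was 2.40-fold lower in PA_1 (log2 fold change -1.26, SE 0.092, adjusted p = 3.1e-08) and 4.22-fold lower in PA_3 (log2 fold change -2.08, SE 0.096, adjusted p = 2.8e-11), and PA_1 exceeded PA_3 at 0.82 (SE 0.099, adjusted p = 6.8e-06). These 3 calls held in each alternative analysis run.

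The other subunits that form G protein-gated channels, KCNJ5, KCNJ6 and KCNJ9, were each under 1 TPM in every line, and none was called lower against IVF_1. KCNJ6 held 16 counts (PA_1), 40 (PA_3) and 5 (IVF_1), reached the minimum through PA_3 and is given with no test. KCNJ9 also rose in PA_3 (1.34, adjusted p = 0.015), though it overlaps IGSF8, which has 5962 counts to its 135, on the opposite strand, and the call was lost with DESeq2 (0.08), IVF_1 replicate 1 left out (0.11), IVF_1 replicate 2 left out (0.056) and PA_3 replicate 1 left out (0.19). KCNJ5 was higher in PA_1 than in IVF_1 (1.01, adjusted p = 0.046), a call lost in 7 of 13 alternative analyses, DESeq2 and the omission of any 1 library among them (adjusted p up to 0.32). KCNJ11, the pore of channels closed by ATP, rose in PA_3 at 1.02 (SE 0.26, adjusted p = 0.004) while its relative KCNJ8 was not called. KCNJ4, a strong rectifier, had 1.53 and 1.47 CPM (PA_1), 3.15 and 2.86 (PA_3), and 1.27 and 0.982 (IVF_1) and rose in PA_3 at 1.40 (SE 0.28, adjusted p = 0.0005). KCNJ2, KCNJ10 and KCNJ14 were not called in any comparison, and KCNJ14 was the second Kir gene in level at 1.99 TPM over the libraries.

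Of 21 Kv pore-forming genes, 3 rose and 3 fell in PA_1 against IVF_1, 8 rose and 1 fell in PA_3, and 1 was higher and 7 were lower in PA_1 than in PA_3. The 8 include KCND3 and the 7 include KCND3 and KCNH4, which reached the minimum through PA_3, so the choice of members bears on these counts. Among all genes tested, 15.3% and 16.1% were called higher and lower in PA_1, and 25.9% and 26.2% in PA_3, with 17.8% and 19.0% for PA_1 against PA_3. KCNC2 (ENSSSCG00000000516, chromosome 5, 38326408 to 38533110, minus strand), a fast channel of rapidly firing neurons, had 3.73 and 3.44 CPM (PA_1), 9.61 and 9.21 (PA_3), and 1.09 and 1.18 (IVF_1), rising without overlap from IVF_1 through PA_1 to PA_3. It was 3.17-fold higher in PA_1 than in IVF_1 (log2 fold change 1.67, SE 0.24, adjusted p = 5.5e-05) and 8.28-fold higher in PA_3 (log2 fold change 3.05, SE 0.21, adjusted p = 5.2e-09), and PA_1 stood below PA_3 at -1.38 (SE 0.16, adjusted p = 3.8e-06). Its family member KCNC4, with 7.22 and 5.07 CPM (PA_1), 5.50 and 5.79 (PA_3), and 6.65 and 5.76 (IVF_1), was not called in any comparison. An unnamed gene model on the opposite strand overlaps KCNC2 by 3528 bases and held 216 counts to its 680. By library the model held 73 and 35 counts (PA_1), 40 and 43 (PA_3), and 15 and 10 (IVF_1). KCNC2 held 110 and 63, 229 and 242, and 18 and 18. The share of the model's reads in the KCNC2 counts was not tested.

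KCNQ3, a pore subunit of the M current that limits repeated firing, had 5.46 and 4.69 CPM (PA_1), 7.98 and 6.36 (PA_3), and 5.38 and 4.58 (IVF_1). It rose in PA_3 against IVF_1 at 0.52 (SE 0.18, adjusted p = 0.022), and PA_1 stood below PA_3 at -0.48 (SE 0.17, adjusted p = 0.032). The first call was lost with DESeq2 (0.097), IVF_1 replicate 2 left out (0.18) and PA_3 replicate 1 left out (0.21). The second was lost with DESeq2 (0.15), library totals (0.061), PA_1 replicate 2 left out (0.096) and PA_3 replicate 1 left out (0.3).

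KCNA3, a channel known from lymphocytes, was higher in PA_1 than in IVF_1 at 1.25 (SE 0.36, adjusted p = 0.014) and than in PA_3 at 0.89 (SE 0.31, adjusted p = 0.035), while KCNA4 was not called. The first KCNA3 call was lost with DESeq2 (0.093), IVF_1 replicate 1 left out (0.18) and PA_1 replicate 1 left out (0.16). The second was lost with DESeq2 (0.21), PA_1 replicate 1 left out (0.36), PA_3 replicate 1 left out (0.19) and PA_3 replicate 2 left out (0.081). KCNH8, of the same family as KCNH3, rose in PA_3 (0.56, adjusted p = 0.017), a call lost with DESeq2 (0.07), IVF_1 replicate 2 left out (0.15), PA_3 replicate 1 left out (0.058) and PA_3 replicate 2 left out (0.061). Of the subunits for fast transient currents, KCND1 on the X chromosome rose in PA_3 at 0.73 (SE 0.13, adjusted p = 0.00025). KCND3 held 16 counts (PA_1), 87 (PA_3) and 17 (IVF_1), reached the minimum through PA_3 and is given with no test. KCND2 was not called. KCNH2, which carries the late repolarising current of the heart, had 11.9 and 7.25 CPM (PA_1), 11.6 and 10.9 (PA_3), and 13.5 and 13.0 (IVF_1) and no call, and the libraries of PA_1 differed from each other by more than the lines did. KCNH3 of the forebrain rose in both PA lines (0.43 and 0.40, adjusted p = 0.02 and 0.016). In PA_1 that call was lost with DESeq2 (0.074), IVF_1 replicate 1 left out (0.14), IVF_1 replicate 2 left out (0.11) and PA_1 replicate 1 left out (0.17). In PA_3 it was lost with DESeq2 (0.059), IVF_1 replicate 1 left out (0.099), IVF_1 replicate 2 left out (0.085), PA_3 replicate 1 left out (0.066) and PA_3 replicate 2 left out (0.064). Its relative KCNH4, which reached the minimum through PA_3 with 48 counts, was lower in PA_1, with 14 counts, than in IVF_1, with 32 (log2 fold change -1.74, SE 0.48, adjusted p = 0.011), and that call was lost with DESeq2 (0.081), IVF_1 replicate 1 left out (0.1) and PA_1 replicate 1 left out (0.13).

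The silent Kv subunits, which form no channel alone and change the properties of KCNB channels, included 2 of the 3 Kv genes that fell in PA_1 against IVF_1. KCNG3 had 7.43 and 7.58 CPM (PA_1), 7.72 and 8.15 (PA_3), and 11.12 and 12.8 (IVF_1), with IVF_1 highest, and fell in PA_1 at -0.67 (SE 0.14, adjusted p = 0.0013) and in PA_3 at -0.59 (SE 0.13, adjusted p = 0.0016). KCNS3 had 2.37 and 2.40 CPM (PA_1), 2.94 and 2.74 (PA_3), and 3.75 and 3.93 (IVF_1) and fell in PA_1 at -0.68 (SE 0.21, adjusted p = 0.023), a call lost with DESeq2 (adjusted p = 0.14), without replicate 1 of PA_1 (0.058) and without either IVF_1 library (0.098 and 0.12). KCNG1 went the other way, with 5.29 and 3.49 CPM (PA_1), 7.22 and 7.01 (PA_3), and 3.38 and 4.91 (IVF_1), and PA_3 exceeded IVF_1 at 0.78 (SE 0.21, adjusted p = 0.0053) while PA_1 stood below PA_3 at -0.66 (SE 0.20, adjusted p = 0.014). The first call ended on omitting replicate 1 of IVF_1 (adjusted p = 0.11) and the second without either PA_3 library, without replicate 2 of PA_1 and with DESeq2 (adjusted p from 0.057 to 0.072). KCNF1, another silent subunit, and the pore-forming KCNB2 were not called in any comparison.

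Potassium channels opened by intracellular calcium or sodium rose in PA_3 against IVF_1 in 4 of 6 genes, and in PA_1 in 1, where 25.9% and 15.3% of all tested genes were called higher. KCNN3 (ENSSSCG00000006542, chromosome 4, 94915965 to 95113276, plus strand), a small-conductance channel opened by calcium, had 9.43 and 11.7 CPM (PA_1), 20.2 and 19.7 (PA_3), and 5.86 and 5.50 (IVF_1), with PA_3 highest, IVF_1 lowest and no overlap. It was 3.51-fold higher in PA_3 than in IVF_1 (log2 fold change 1.81, SE 0.14, adjusted p = 2.5e-08) and also rose in PA_1 at 0.88 (SE 0.15, adjusted p = 0.00032), and PA_1 was below PA_3 at -0.93 (SE 0.12, adjusted p = 1.8e-05). KCNN1, of the same kind and the most abundant gene of this family at 16.5 ± 0.0566 TPM in PA_3, had 19.0 and 15.3 CPM (PA_1), 24.0 and 24.6 (PA_3), and 17.2 and 13.9 (IVF_1). It rose in PA_3 at 0.64 (SE 0.13, adjusted p = 0.00056), while PA_1 against IVF_1 was not called and its libraries overlapped.

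KCNMA1, the large-conductance calcium-activated channel, had 5.90 and 5.35 CPM (PA_1), 10.2 and 7.35 (PA_3), and 4.96 and 4.58 (IVF_1). Its PA_3 libraries were both highest but lay apart from each other. It rose in PA_3 at 0.88 (SE 0.18, adjusted p = 0.00076) and was lower in PA_1 than in PA_3 at -0.63 (SE 0.17, adjusted p = 0.0071), a call lost without replicate 1 of PA_3 (-0.38, adjusted p = 0.175). Its auxiliary subunit KCNMB4 had 11.8 and 12.2 CPM (PA_1), 10.2 and 9.29 (PA_3), and 7.55 and 6.74 (IVF_1) and rose in both lines, at 0.74 (SE 0.14, adjusted p = 0.00062) in PA_1 and 0.44 (SE 0.14, adjusted p = 0.014) in PA_3, the second lost with DESeq2 (0.069), IVF_1 replicate 2 left out (0.14) and PA_3 replicate 1 left out (0.1). KCNT2, a sodium-activated channel, rose in PA_3 (0.31, adjusted p = 0.031), a call lost with DESeq2 (0.065), IVF_1 replicate 1 left out (0.22), IVF_1 replicate 2 left out (0.072) and PA_3 replicate 1 left out (0.25), and KCNT1 and KCNN2 were not called.

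Of 9 auxiliary potassium channel subunits, 2 rose in PA_1 and 4 in PA_3, with 0 lower in either by edgeR, 0 lower at an unadjusted p below 0.05, and 0 lower by DESeq2. Among all genes tested, 15.3% and 16.1% were called higher and lower in PA_1, and 25.9% and 26.2% in PA_3. KCNAB3, a cytoplasmic beta subunit of Kv channels, had 43.6 and 38.7 CPM (PA_1), 51.3 and 51.1 (PA_3), and 35.1 and 32.8 (IVF_1). PA_3 exceeded IVF_1 at 0.59 (SE 0.089, adjusted p = 3.9e-05). PA_1 against PA_3 gave -0.31 (SE 0.086, adjusted p = 0.009), a call lost without either PA_3 library (adjusted p = 0.052 and 0.056). The smaller rise of PA_1 over IVF_1, 0.28 (SE 0.091, adjusted p = 0.025), was lost without replicate 1 of PA_1, without either IVF_1 library and with DESeq2 (adjusted p from 0.055 to 0.22). KCNIP2, a calcium-binding partner of KCND channels, had 5.43 and 5.62 CPM (PA_1), 9.23 and 8.72 (PA_3), and 5.14 and 5.17 (IVF_1) and was highest in PA_3, with 0.80 (SE 0.15, adjusted p = 0.00034) against IVF_1 and -0.70 (SE 0.14, adjusted p = 0.00093) for PA_1 against PA_3. KCNAB2 rose in PA_3 (0.53, adjusted p = 0.0032), a call lost with IVF_1 replicate 2 left out (0.063). KCNIP1, KCNIP3, KCNIP4, KCNAB1 and KCNE3 were not called in any comparison.

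**Figure D4:**
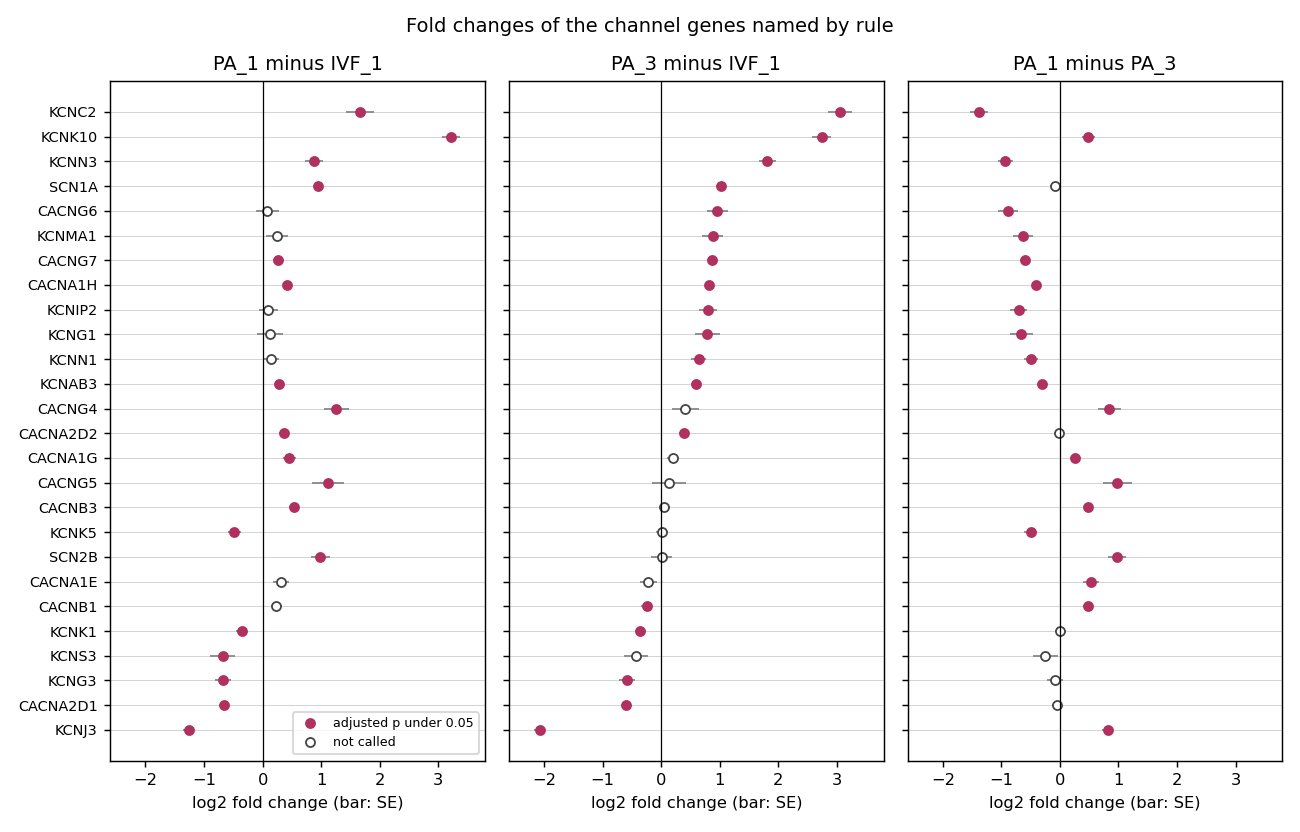
Log2 fold changes (points) with their SE (bars) of the 26 members chosen by the naming rule in the 3 comparisons, ordered by PA_3 minus IVF_1, filled where the adjusted p is below 0.05. KCNK10 and KCNC2 are the furthest right against IVF_1, at 3.22 and 1.67 in PA_1 and 2.74 and 3.05 in PA_3, and KCNJ3 is the furthest left at -1.26 and -2.08.

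Several members share their place in the table's annotation with other genes. Of the 81, 19 overlap another annotated gene, 13 of them on the opposite strand, and for 6 an overlapping gene holds at least as many counts. Those 6 are CACNA1D, CACNA2D4, CACNB2, KCNAB1, KCNIP4 and KCNJ9. The libraries were made with a stranded kit, per the labels' protocols.

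Other genes that set ion gradients and channel function were counted from lists that are not defined by the symbols above. Of 21 tested pump and transporter genes, PA_1 against IVF_1 gave 5 higher and 7 lower, and PA_3 gave 9 and 7. For these lists too the shares over the whole table were 15.3% and 16.1% in PA_1 and 25.9% and 26.2% in PA_3. ATP1A4, a sodium pump subunit known from sperm, rose at 1.15 in PA_1 and 2.38 in PA_3 (log2 fold changes). Of 25 tested channel partners, 10 were higher and 7 lower in PA_1, and 13 and 5 in PA_3. DPP6, a partner of KCND channels, rose in both (0.91 and 0.77), as did FGF13, which binds sodium channels (0.46 and 0.87), and STAC2, which binds calcium channels (0.91 and 1.57).

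Of 34 other cation channel genes tested, 6 were higher and 5 lower in PA_1, and 15 and 4 in PA_3 (15.3% and 16.1%, and 25.9% and 26.2%, of all tested genes), with PIEZO1, a stretch-gated channel, lower in both (-0.92 and -0.88) and ASIC4 higher in both (0.69 and 1.66). Of 10 tested genes of calcium release and store-operated entry, 3 were higher and 4 lower in PA_1, and 3 and 2 in PA_3. Among these, ITPR3, a calcium release channel of the endoplasmic reticulum, fell at -0.82 and -1.43, and RYR2, the release channel of heart muscle, rose at 0.63 and 0.64.

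Markers of cells in which these channels are best known were measured beside them. Their sums are in TPM, which ran low in PA_3 beside IVF_1 (median log2 ratio -0.27). The 12 neuron markers found summed to 214 to 240 TPM in PA_1, 189 to 221 in PA_3 and 126 to 127 in IVF_1, with none at 0 counts. STMN2, a neuronal microtubule regulator, made up much of that difference at 103 ± 6.5 TPM in PA_1, 95.4 ± 15.9 in PA_3 and 28.4 ± 0.156 in IVF_1. MAP2, SNAP25 and SYT1 rose in both PA lines, NEFL fell in both (-1.63 and -2.12), and 5 of 12 were higher and 2 lower in PA_1, and 7 and 3 in PA_3, beside 15.3% and 16.1%, and 25.9% and 26.2%, of all tested genes. The 10 muscle markers found summed to 134 TPM in both PA_1 libraries, 161 to 176 in PA_3 and 134 to 149 in IVF_1, 2 of them with 0 counts in all libraries. Of these, 5 were tested, with 2 higher and 1 lower in PA_1, and 3 and 1 in PA_3, ACTC1 being the lower gene in both. The shares over all tested genes given for the neuron markers apply to the other marker lists too. The 12 fibroblast markers summed to 140 to 151 TPM in PA_1, 144 to 161 in PA_3 and 258 to 264 in IVF_1, TAGLN being the largest in each. The 8 endoderm markers summed to 85.1 to 87.5, 123 to 126 and 79.0 to 81.2 TPM, nearly all of it APOA1, an apolipoprotein. Of the 5 tested, GATA4, SOX17 and GATA6, each with a mean of at most 1.11 TPM in IVF_1, were called lower in PA_1. In PA_3 FOXA2 (2.18) and APOA1 (0.84) were higher and GATA4 and GATA6 lower. The 7 trophoblast markers summed to 14.7 to 14.96, 10.3 to 11.09 and 22.5 to 24.8 TPM, with CDX2 at 0 counts. EOMES made up much of that difference, at 1.78 ± 0.0566 TPM in PA_1, 0.69 ± 0.311 in PA_3 and 7.855 ± 0.955 in IVF_1. Of 4 trophoblast markers tested, 0 were higher and 2 lower in PA_1, and 0 and 2 in PA_3. In bulk RNA, more cells of a type and more RNA per cell cannot be told apart, and the part of these markers' cell types in the channel differences was not tested, nor was that of the pluripotency markers that were lower in the parthenogenetic lines.

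Under the minimum stood 43 further channel symbols, 7 of them with no count. Just inside the minimum were KCNJ6 with 61 counts, KCNJ2 with 65 and SCN4A with 80, and just outside it KCNQ5 with 53, KCNA7 with 52 and KCNC1 with 47. The families differed in how many of their symbols passed, from 4 of 4 alpha2delta and 4 of 4 beta calcium channel genes to 6 of 14 K2P genes.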

How the data were processed

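Poly(A) RNA was sequenced from 3 pig embryonic stem cell lines, 2 libraries per line, with a stranded kit per the labels' protocols. Reads were trimmed with cutadapt 2.8 and aligned with STAR 2.7.1a to Sscrofa11.1, per the submitters' processing notes. No source used here names the counting tool, its strand setting or the annotation release. The authors deposited 1 table of whole-number read counts per gene, not normalized, and TPM values scaled by gene length and to the same total in each library. The 54 sample columns of other material in the table were not used.

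Counts were tested with edgeR 4.0.16 in R 4.3.3 (TMM, filterByExpr by line, robust quasi-likelihood fit of all 6 libraries, 15197 genes, Benjamini-Hochberg adjustment, threshold 0.05, 3 comparisons). The procedure was tested on simulated data. TPM gave levels only. Alternatives were DESeq2 1.42.0, other scalings and filters, a replicate block, the minimum of counts, and leaving out each library. Scaling by library totals, and the count of members that reach the minimum without any 1 line and the alternatives for members outside the naming rule, were chosen after seeing the data. The biological coefficient of variation was 6.11% with 3 residual degrees of freedom, and the correlation of log2 CPM between libraries of a line was 0.991 to 0.994.

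Full values are given for the 12 members with the highest mean TPM, and for up to 6 called members per direction and comparison with the largest fold change, libraries that do not overlap and at least 1 TPM in the higher line. Other members are named within their family, and up to 4 genes of each other list by smallest adjusted p. The members and lists were chosen with earlier results of these data known. Some genes are not reported here by name, though they remain in the counts.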

Additional observations from a re-analysis of the deposited data

Results flagged for a closer look

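Among genes of the other lists, 5 differed from IVF_1 in opposite directions in the parthenogenetic lines, with the difference between those lines itself past the threshold by edgeR. ATP1B2, a sodium pump subunit, was at -0.60 in PA_1 and 1.46 in PA_3 (log2 fold change against IVF_1), and PA_1 against PA_3 gave -2.06. ATP1B1, another subunit of that pump, was at -0.39 and 0.19, with -0.58 between the lines. In TPM ATP1B1 was at 256 ± 0.346 in PA_3 and 273 ± 0.686 in IVF_1, so the direction of its change in PA_3 depends on the scaling. LRRC55, an auxiliary subunit of the large-conductance calcium-activated potassium channel, was at 0.73 and -0.86, with 1.59 between the lines. TRPM3, a heat-activated cation channel, was at 0.97 and -1.44, with 2.41 between the lines. DCX, a microtubule protein of migrating neurons, was at 1.35 and -0.78, with 2.13 between the lines. Its fall in PA_3 was marginal by edgeR (adjusted p = 0.045), with 0.84 and 1.6 TPM in the IVF_1 libraries. The alternative analyses were not examined for these 5 genes. Both comparisons with IVF_1 use the same IVF_1 libraries.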

How the results depend on the processing

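Leaving out 1 library at a time gave 15 to 33 called members in PA_1 against IVF_1 (12 to 25 higher, 3 to 8 lower), 27 to 39 in PA_3 against IVF_1 (24 to 34 higher, 3 to 5 lower) and 20 to 32 in PA_1 against PA_3 (6 to 13 higher, 14 to 22 lower). Over the whole table these ranges were 2307 to 5812 genes (1125 to 2922 higher, 1182 to 2890 lower), 5530 to 9153 (2757 to 4560 higher, 2749 to 4600 lower) and 3406 to 6496 (1596 to 3212 higher, 1810 to 3284 lower). DESeq2 called 21, 28 and 23 members, and 8 higher in PA_1 than in PA_3 where edgeR called 13. Over the whole table DESeq2 called 3386, 6323 and 4109 genes where edgeR called 4766, 7920 and 5595. For genes higher in PA_1 than in PA_3 these were 2075 and 2712. Replicate numbers did not pair the libraries (correlations of deviations -0.0227, 0.064 and -0.0324), and with a replicate block 32, 37 and 33 members were called. A minimum of 120 or 30 counts left 72 or 85 members. With only the 74 members that reach the minimum without any 1 line, 28, 34 and 30 were called. For the 26 members of the naming rule, 943 alternative values kept direction and call, 47 lost the call, 5 gained it and 19 changed sign, all 19 for differences not called. With library totals these were CACNA2D1 (PA_1 against PA_3) at 0.0051, CACNA2D2 (PA_1 against PA_3) at 0.034, KCNK5 (PA_3 against IVF_1) at -0.012, SCN2B (PA_3 against IVF_1) at -0.021. Without the filter on low counts it was KCNK1 (PA_1 against PA_3) at -0.0061. The log2 fold changes of the differences whose sign changed for some omitted library ranged, over the 6 omissions, as CACNA2D1 (PA_1 against PA_3) -0.12 to 0.018, CACNA2D2 (PA_1 against PA_3) -0.054 to 0.00084, CACNG5 (PA_3 against IVF_1) -0.12 to 0.34, KCNG1 (PA_1 against IVF_1) -0.24 to 0.41, KCNK1 (PA_1 against PA_3) -0.036 to 0.0401, KCNK5 (PA_3 against IVF_1) -0.13 to 0.15, KCNN1 (PA_1 against IVF_1) -0.033 to 0.31, SCN1A (PA_1 against PA_3) -0.18 to 0.0088, SCN2B (PA_3 against IVF_1) -0.078 to 0.098. For the other 55 members, 14 of 44 calls held under all 13 alternatives and 30 were lost under at least 1, a check chosen after seeing the data. The cause was not tested. Members under 100 counts in all, such as KCNJ6, KCNJ2, SCN4A and KCNH4, are limited by depth.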
